A study of Mus musculus with 9 samples.

Results

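The 9 genes described here are the Axl family of receptor tyrosine kinases (Axl, Mertk and Tyro3) with its ligands Gas6 and Pros1, and the Met family (Met and Mst1r) with its ligands Hgf and Mst1. They were selected by gene symbol, with earlier results of these data known. All 9 were found once each among the 24012 genes of the deposited table. Expression was measured by RNA sequencing of mouse pancreatic ductal adenocarcinoma (PDAC) tumour cells taken from lungs after tail vein injection, in 3 groups of 3 libraries. mCherryLow and mCherryHigh are GFP-positive cells split by a Gstt1-mCherry reporter and collected at 6 weeks, numbered 1, 5 and 6 in each group. DTC is a GFP sort at 5 days, numbered 1, 2 and 3. Every library carries the same genotype label, which includes SIRT6F/F, p48-Cre and p53F/+, so its alleles are shared by all groups and are no part of any comparison. The p48-Cre allele acts in cells of the pancreatic lineage. Whether each library is a mouse of its own is not stated in the labels, so p-values measure only the spread between these libraries, which may be technical.

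The Axl family receptors are activated by 2 related vitamin K-dependent proteins that bridge the receptor to phosphatidylserine on dying cells and membrane fragments. Gas6 (growth arrest specific 6) binds all members of the family, while protein S, the product of Pros1, acts on Tyro3 and Mertk. Axl is known in carcinoma for its association with mesenchymal and drug-resistant states, and Mertk for the engulfment of apoptotic cells by macrophages. The Met family drives scatter, migration and survival of epithelial cells. Hepatocyte growth factor (Hgf), made largely by stromal cells, activates Met, and macrophage stimulating protein (Mst1), made largely by the liver, activates Mst1r (also called Ron). Both Met family ligands are secreted as inactive precursors and cut by serine proteases.

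The promoters of the 5 genes that differed between DTC and mCherryLow are printed here so that the genes that rose (Mertk, Gas6, Mst1r) and those that fell (Axl, Pros1) can be compared by their letters. Each runs 5′ to 3′ on the gene's strand from 250 bases before to 50 after an annotated start, from RefSeq on GRCm38.p6, a later build than the mm9 of the expression values. Capitals mark the GC box, GGGCGG on either strand, the letters bound by Sp1-type factors. Mst1r has a pair of entries, since RefSeq places a second start inside the gene, 8114 bases downstream. A shorter Ron receptor is known to be made from an internal start, and the gene-level values below cannot tell the 2 forms apart.
Axl (chr7:25788684-25788983, minus strand): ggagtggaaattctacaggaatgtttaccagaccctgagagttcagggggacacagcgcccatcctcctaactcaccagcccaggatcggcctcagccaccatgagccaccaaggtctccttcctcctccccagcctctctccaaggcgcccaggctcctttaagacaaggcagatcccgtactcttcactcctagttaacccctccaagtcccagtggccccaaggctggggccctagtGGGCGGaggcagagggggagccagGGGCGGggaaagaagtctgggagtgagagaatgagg
Mertk (chr2:128698665-128698964, plus strand): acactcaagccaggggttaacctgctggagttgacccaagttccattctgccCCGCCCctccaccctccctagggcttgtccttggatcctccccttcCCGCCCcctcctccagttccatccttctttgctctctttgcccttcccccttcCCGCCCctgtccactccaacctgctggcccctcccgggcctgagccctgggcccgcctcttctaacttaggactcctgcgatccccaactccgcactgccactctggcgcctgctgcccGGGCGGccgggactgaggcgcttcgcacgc
Gas6 (chr8:13494486-13494785, minus strand): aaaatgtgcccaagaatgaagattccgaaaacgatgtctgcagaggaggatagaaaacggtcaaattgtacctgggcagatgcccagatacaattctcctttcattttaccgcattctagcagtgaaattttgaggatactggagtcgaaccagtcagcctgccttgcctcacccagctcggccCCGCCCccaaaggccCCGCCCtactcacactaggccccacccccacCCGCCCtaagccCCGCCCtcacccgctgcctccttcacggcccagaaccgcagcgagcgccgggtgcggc
Pros1 (chr16:62854057-62854356, plus strand): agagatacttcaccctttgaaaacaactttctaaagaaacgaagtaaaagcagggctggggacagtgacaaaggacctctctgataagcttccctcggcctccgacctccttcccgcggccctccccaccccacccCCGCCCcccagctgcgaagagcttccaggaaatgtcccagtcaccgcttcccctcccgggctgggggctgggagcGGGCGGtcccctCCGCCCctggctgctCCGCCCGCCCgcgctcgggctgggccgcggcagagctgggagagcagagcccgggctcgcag
Mst1r, first start (chr9:107906639-107906938, plus strand): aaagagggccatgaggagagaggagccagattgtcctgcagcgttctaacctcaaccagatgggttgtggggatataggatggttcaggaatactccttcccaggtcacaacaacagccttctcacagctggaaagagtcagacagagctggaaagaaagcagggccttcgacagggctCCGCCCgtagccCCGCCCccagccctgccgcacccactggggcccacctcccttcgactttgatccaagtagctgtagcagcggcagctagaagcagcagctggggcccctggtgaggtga
Mst1r, internal start (chr9:107914753-107915052, plus strand): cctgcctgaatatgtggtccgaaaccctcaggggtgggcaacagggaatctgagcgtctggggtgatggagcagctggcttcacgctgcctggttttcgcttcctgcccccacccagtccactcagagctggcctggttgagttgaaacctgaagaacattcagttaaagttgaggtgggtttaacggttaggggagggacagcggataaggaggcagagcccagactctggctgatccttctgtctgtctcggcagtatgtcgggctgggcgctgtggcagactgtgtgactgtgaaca

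The GC box was found 2 times in the Axl promoter, 4 times in Mertk, 4 in Gas6, 5 in Pros1 and 2 in the first Mst1r promoter, and 0 times in the internal one. Of all 32851 promoters of this length, 35.7% held at least 1. Promoters of genes that rose and of genes that fell in DTC therefore both held it. Among the other members it was found 6 times in Tyro3, 3 times in Met, and 0 times in Mst1 and in both Hgf promoters. The TATA box, TATAAA on either strand, was in 0 of the members' promoters and in 13.6% of all. The AP-1 letters TGANTCA, searched in the same way, occurred once, in Met, and in 7.81% of all promoters. Guanine and cytosine made up 75.7% of the Met promoter and 73.3% of Tyro3, against 60.3% for Axl and a median of 52.7% over all promoters. These counts describe letters, and no binding was measured.

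Values are in CPM, read counts with each library scaled to a common total. Library totals recovered from the values ran from 643748 reads (mCherryHigh 1) to 11861241 (mCherryLow 6), and the DTC libraries held 923988 to 2052623. Genes with any read numbered 20627, 21038 and 20555 in DTC 1, 2 and 3. They numbered 18666 and 19505 in the deeper mCherryHigh 5 and 6, and 18979 and 18562 in mCherryLow 5 and 6. The shallower mCherryHigh 1 and mCherryLow 1 had 19500 and 20753. The part of this spread of reads in the rises of low genes in DTC was not tested. The limit set by a count of 0, taken as 3 reads, was 4.66 CPM in mCherryHigh 1, 3.25 in DTC 3 and 0.253 in mCherryLow 6. Gstt1, the gene of the sort reporter, stood at 53.3 ± 6.44 CPM (SD, n = 3) in the mCherryHigh libraries, above 18.8 ± 9.32 CPM in the mCherryLow ones. The 3 DTC libraries also have a code series of their own in the labels, and it cannot be told apart from the 5 days and the GFP gate. The mCherry libraries numbered 1 have the code CFa10, mCherryLow 5 and 6 and mCherryHigh 5 have CFa12, and mCherryHigh 6 has CFa13, with no meaning stated. Summed markers of macrophages (11 genes) lay between 295 and 738 CPM in the 6 sorted mCherry libraries and at 3776, 3024 and 7432 CPM in DTC 1, 2 and 3. Those of endothelium (8 genes) lay between 15.1 and 54.4 CPM against 190 to 385 in DTC, those of fibroblasts (7 genes) between 25.3 and 92.5 against 67.7 to 188, and those of neutrophils (5 genes) between 3.76 and 20.3 against 44.1 to 139. Summed T and NK cell markers (4 genes) were at most 3.11 CPM in the mCherry libraries and 20.5 to 133 in DTC. The 8 epithelial tumour markers summed to 1797 to 5995 CPM in the mCherry libraries, and to 5345, 6054 and 439 CPM in DTC 1, 2 and 3. DTC 3 stood apart in this sum, to which keratins gave most. Krt8, Krt18, Krt19, Cdh1 and Sox9 were lowest in DTC 3 of the DTC libraries. Muc1 was highest there (15.2, 6.82 and 18.4 CPM in DTC 1, 2 and 3). Epcam was at 21.3, 4.38 and 16.2 CPM, and Cldn4 at 0.761, 0 and 0 CPM. In these bulk samples, fewer cells of a type and less RNA per cell cannot be told apart.

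Axl had the highest level per kilobase of the 9 genes in every mCherry library and was lower in DTC, while Mertk and Gas6 were higher there. Pros1 was lower and Mst1r higher in DTC than in mCherryLow. Met, the other abundant receptor, stayed within the spread of the libraries in every comparison. Between mCherryHigh and mCherryLow, Mst1r differed most and did not pass the main test.

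Axl was read at 676, 931 and 583 CPM in mCherryLow 1, 5 and 6, at 533, 683 and 546 CPM in mCherryHigh 1, 5 and 6, and at 134, 140 and 186 CPM in DTC 1, 2 and 3. All 3 DTC libraries lay far below all 6 mCherry libraries, whose groups overlapped. The DTC mean of 153 ± 28.6 CPM (SD, n = 3) was 4.76-fold below the mCherryLow mean of 730 ± 180 CPM. In units of log2(CPM + 1) the difference was -2.23 (SE 0.33, limma adjusted p = 0.00062) against mCherryLow and -1.94 (SE 0.32, limma adjusted p = 0.00275) against mCherryHigh. The median difference of all tested genes had the other sign in these values, 0.59 and 0.55, which puts Axl at -2.82 and -2.48 relative to it. That median depended on scaling. It was -0.06 and 0.06 after quantile normalization, and 0.29 and 0.39 with median-of-ratios scaling. Axl passed the test under all 17 alternatives of each DTC comparison. Macrophage and endothelial markers were higher in the DTC libraries by the sums given above, and their part in the fall of Axl was not tested. Among the DTC libraries Axl was highest in DTC 3, where macrophage markers were also highest and keratins lowest.

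Mertk, the engulfment receptor, showed the opposite order. It was read at 22.4, 30.7 and 20.7 CPM in mCherryLow, at 20.2, 29.3 and 19.4 CPM in mCherryHigh and at 59.4, 51.6 and 95.2 CPM in DTC 1, 2 and 3. The 2 mCherry groups were alike in range, and the lowest DTC library lay above the highest of them. The DTC mean of 68.7 ± 23.3 CPM (SD, n = 3) was 2.80-fold that of mCherryLow and 2.99-fold that of mCherryHigh. The log2(CPM + 1) differences were 1.42 (SE 0.42, limma adjusted p = 0.0178) and 1.51 (SE 0.44, limma adjusted p = 0.0242), or 0.82 and 0.97 above the median of all genes. The calls held under 11 of 17 and 12 of 17 alternatives. Without DTC 3 the difference from mCherryLow was 1.16 (limma adjusted p = 0.0515) and that from mCherryHigh 1.26 (limma adjusted p = 0.0687), with edgeR on the recovered reads 0.94 (adjusted p = 0.113) and 1.15 (adjusted p = 0.0951). The call against mCherryLow was also lost after quantile normalization (1.29, limma adjusted p = 0.0579), with median-of-ratios scaling (1.06, limma adjusted p = 0.0621), and without mCherryLow 1 (limma adjusted p = 0.0523) or mCherryLow 6 (0.0567). The call against mCherryHigh was also lost after quantile normalization (limma adjusted p = 0.0631), and without DTC 1 (0.0684) or mCherryHigh 6 (0.0705). Macrophages express Mertk, and their summed markers rose from DTC 2 to DTC 1 to DTC 3, as Mertk did. The sums of endothelium, fibroblasts and T and NK cells had that order too, while those of neutrophils and epithelial tumour cells did not. The exact Poisson intervals of Mertk in DTC 1 and DTC 2, 46.9 to 74.1 and 42.3 to 62.5 CPM, overlap. The part of any of these cells in the higher level was not tested.

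Tyro3, the third receptor, was read at 18.0, 40.1 and 13.7 CPM in mCherryLow, at 1.55, 30.0 and 21.9 CPM in mCherryHigh and at 12.2, 15.1 and 5.41 CPM in DTC. The value of 1.55 CPM in mCherryHigh 1 is a single read, with an exact Poisson interval of 0.0393 to 8.66 CPM that covers counting error only. The groups overlapped in all 3 comparisons and Tyro3 did not pass in any, with log2(CPM + 1) differences of -0.89, -1.03 and -0.14. The 95% interval of the difference between DTC and mCherryLow ran from -2.32 to 0.27. It passed once, after quantile normalization in that comparison (-1.94, limma adjusted p = 0.0494).

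**Figure D1:**
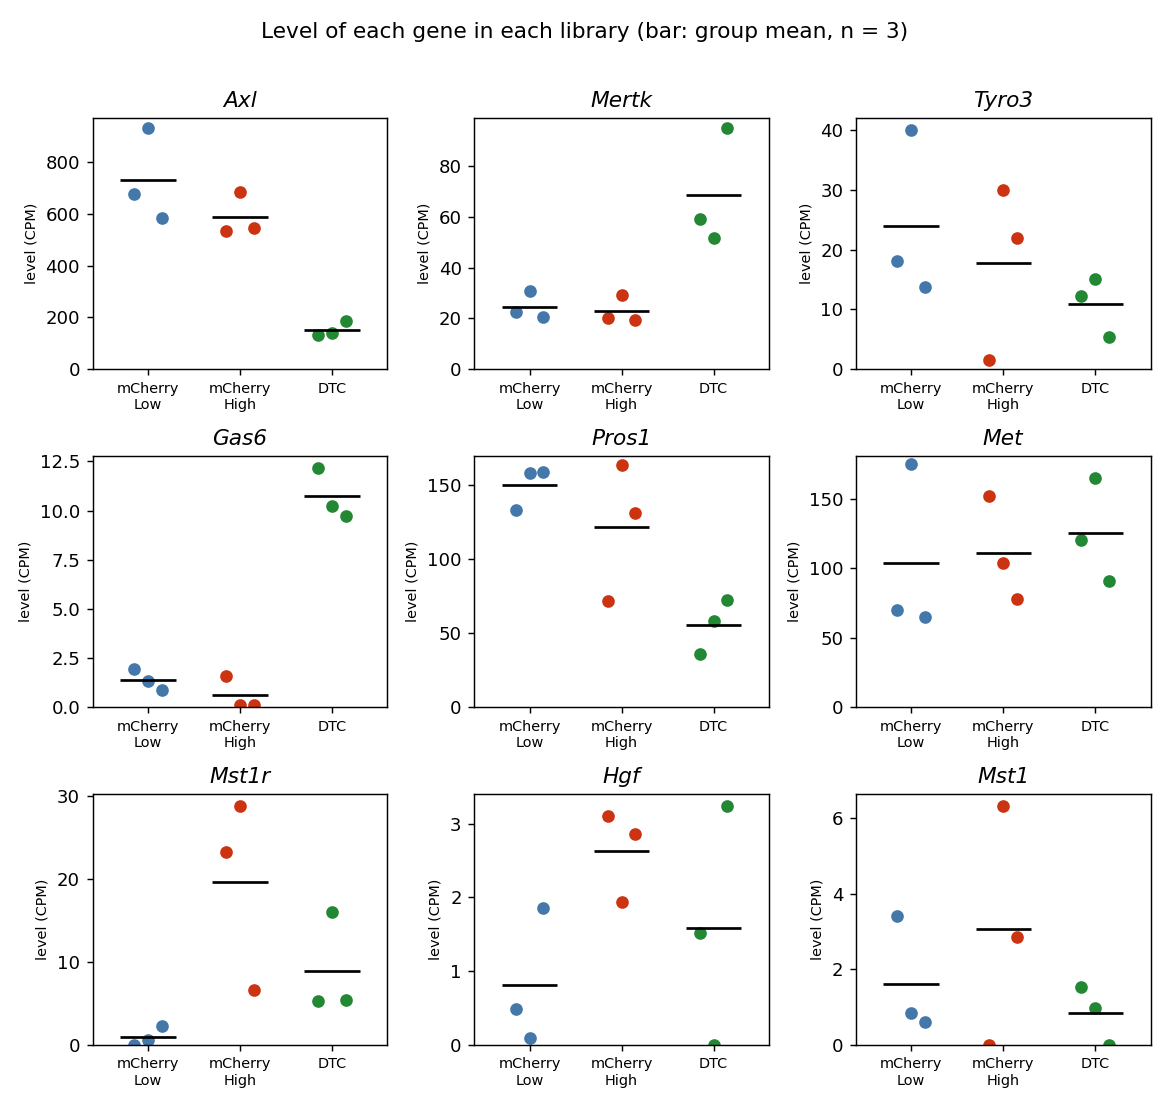
Level in CPM (y axis) of each of the 9 genes in every library, with points for libraries, a bar for the mean of 3 and the groups on the x axis. The 3 DTC points of Axl lie between 134 and 186 CPM, under every mCherry point, those of Mertk and Gas6 lie above every mCherry point, and the Mst1r points of mCherryHigh lie above those of mCherryLow.

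Per kilobase of the longest protein-coding transcript, the make-up of the Axl family differed between DTC and the mCherry groups. Axl stood at 171 ± 42.3 CPM per kilobase (SD, n = 3) in mCherryLow, 138 ± 19.6 in mCherryHigh and 35.9 ± 6.70 in DTC. Mertk stood at 5.72 ± 1.25, 5.34 ± 1.27 and 15.98 ± 5.41 CPM per kilobase in the same order, and Tyro3 at 5.37 ± 3.17, 3.99 ± 3.29 and 2.44 ± 1.11. Mertk and Tyro3 thus did not differ from each other beyond their spread in either mCherry group, while in DTC every library had more Mertk. Axl made up 94.1% ± 0.805 (SD, n = 3) of the summed receptors in mCherryLow, 93.8% ± 2.04 in mCherryHigh and 66.2% ± 1.58 in DTC. The Mertk share was 3.16% ± 0.145 in mCherryLow, 3.61% ± 0.316 in mCherryHigh and 28.9% ± 4.06 in DTC, with 28.8%, 24.9% and 33.0% in DTC 1, 2 and 3. No library of DTC overlapped a mCherry library in either share. Shares within a library do not depend on how libraries are scaled to each other. With exon union lengths in place of the longest transcript the DTC means were 63.6% for Axl and 32.5% for Mertk.

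**Figure D2:**
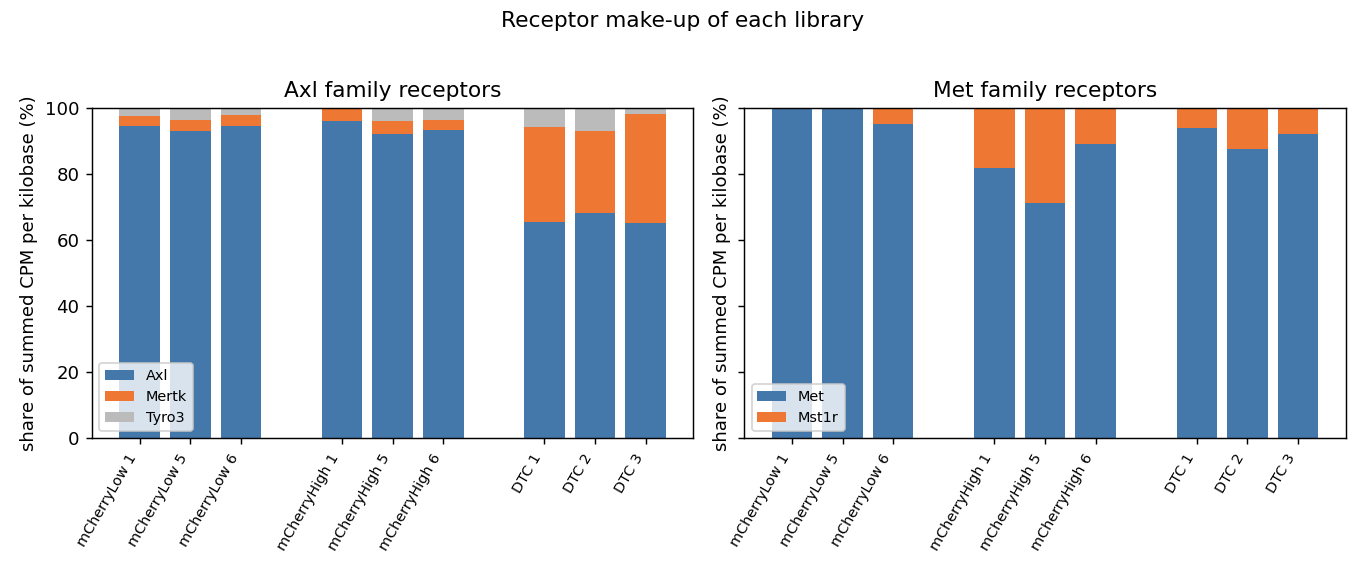
Share (%) of each receptor in the summed CPM per kilobase of its family, for the Axl family (left) and the Met family (right), with 1 bar per library on the x axis. Axl takes 92.2% to 96.1% of the bar in the 6 mCherry libraries and 65.1% to 68.1% in DTC, and Mst1r takes 10.99% to 28.7% in mCherryHigh against at most 4.795% in mCherryLow.

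The 2 ligands of the Axl family moved in opposite directions in DTC. Pros1, which encodes protein S, was the more abundant ligand in all 9 libraries, with 133, 158 and 159 CPM in the mCherryLow libraries, 71.5, 164 and 131 CPM in the mCherryHigh ones and 35.8, 58.5 and 72.5 CPM in DTC. The DTC libraries lay below all of mCherryLow, while the highest of them, DTC 3, just exceeded mCherryHigh 1. The difference from mCherryLow was -1.47 (SE 0.38, limma adjusted p = 0.00853), a 2.70-fold lower mean, and it passed under all 17 alternatives. The difference from mCherryHigh was -1.10 (SE 0.44, limma adjusted p = 0.0793) and did not pass. It passed without mCherryHigh 1, the shallowest library (-1.44, limma adjusted p = 0.0304), with edgeR (adjusted p = 0.0293) and with DESeq2 (adjusted p = 0.0278). Between the mCherry groups Pros1 differed by -0.37 (limma adjusted p = 0.779).

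Gas6 was barely detected in the mCherry groups. It had 4, 14 and 10 reads in mCherryLow (1.95, 1.31 and 0.843 CPM) and 1 read in each mCherryHigh library (1.55, 0.102 and 0.102 CPM). In DTC it had 16, 21 and 9 reads, which are 12.2, 10.2 and 9.74 CPM. All DTC libraries lay above all mCherry libraries, although the exact Poisson interval of the single read in mCherryHigh 1, 0.0393 to 8.66 CPM, overlaps that of DTC 3, 4.45 to 18.5 CPM. Mean Gas6 was 10.7 ± 1.29 CPM (SD, n = 3) in DTC, 7.83-fold that of mCherryLow. Gas6 met the filter through its 3 DTC libraries, with 2 mCherryLow libraries and 1 mCherryHigh library at 1 CPM or more. The log2(CPM + 1) difference was 2.33 (SE 0.55, limma adjusted p = 0.00537) from mCherryLow and 3.00 (SE 0.65, limma adjusted p = 0.00741) from mCherryHigh. Both calls held under 16 of 17 alternatives, and after quantile normalization the differences were 0.41 (limma adjusted p = 0.601) and 1.71 (limma adjusted p = 0.0824). Macrophages, endothelium and fibroblasts can all make Gas6. The exact Poisson intervals of Gas6 in DTC 1, 2 and 3 were 6.96 to 19.8, 6.33 to 15.6 and 4.45 to 18.5 CPM. They overlap, so these libraries give no order of Gas6 to set beside the marker sums. The part of macrophages, endothelium and fibroblasts in the level of Gas6 was not tested. Per kilobase, Gas6 made up 1.20% ± 0.603 (SD, n = 3) of the 2 ligands in mCherryLow, 0.974% ± 1.53 in mCherryHigh and 21.3% ± 8.26 in DTC, with 30.6%, 18.5% and 14.8% in DTC 1, 2 and 3. In a later annotation 34 exon bases of Gas6 lie opposite Tmem255b, and whether counting used strand is not given in the sources used here.

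Met was read at 70.2, 176 and 65.2 CPM in mCherryLow, at 152, 104 and 77.6 CPM in mCherryHigh and at 120, 165 and 90.9 CPM in DTC. These ranges overlap throughout, and the means of 104 ± 62.5, 111 ± 37.9 and 125 ± 37.4 CPM (SD, n = 3) were within the spread of their libraries. The 95% intervals of the log2(CPM + 1) difference were -0.83 to 1.23 for mCherryHigh with mCherryLow, -0.58 to 1.35 for DTC with mCherryLow and -0.68 to 1.05 for DTC with mCherryHigh. A difference of 1 on this scale, about a doubling, lies inside each of them. The sign of the small Met differences turned with edgeR, which gave -0.11, -0.26 and -0.18.

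Mst1r was lowest in mCherryLow. It had 0, 6 and 27 reads in mCherryLow (0, 0.563 and 2.28 CPM), 15, 283 and 65 reads in mCherryHigh (23.3, 28.9 and 6.65 CPM) and 7, 33 and 5 reads in DTC (5.33, 16.1 and 5.41 CPM). The 0 in mCherryLow 1 allows up to 1.46 CPM. Every mCherryHigh and every DTC library lay above every mCherryLow library, and the 2 higher groups overlapped. The nearest mCherry libraries, mCherryHigh 6 and mCherryLow 6, had exact Poisson intervals of 5.13 to 8.47 CPM and 1.5 to 3.31 CPM. The intervals of DTC 1 and DTC 3 began at 2.14 and 1.76 CPM, so each overlaps that of mCherryLow 6. The separation of DTC 1 and DTC 3 from mCherryLow 6 is therefore not beyond counting error. The interval of DTC 2 began at 11.1 CPM, above that of mCherryLow 6. The mCherryHigh mean of 19.6 ± 11.6 CPM (SD, n = 3) stood against 0.947 ± 1.19 CPM for mCherryLow, a log2(CPM + 1) difference of 3.36 (SE 0.73, 95% interval 1.68 to 5.05). It did not pass limma (adjusted p = 0.444) or edgeR (adjusted p = 0.519), and it passed DESeq2 (log2 fold change 4.05, adjusted p = 0.00746). Over its 19 alternatives the adjusted p ran from 0.00746 to 0.905 with the same sign each time. With the code series as a term the difference was 4.10 (limma adjusted p = 0.838).

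Mst1r entered the fit of DTC with mCherryLow through its 3 DTC libraries, with 1 mCherryLow library at 1 CPM or more. Against mCherryLow, Mst1r was higher in DTC by 2.36 (SE 0.65, in log2(CPM + 1), limma adjusted p = 0.012). That call held under 12 of 17 alternatives. It was lost with DESeq2 (2.70, adjusted p = 0.0537), with edgeR (2.52, adjusted p = 0.0801), at equal depth (2.28, limma adjusted p = 0.0607), after quantile normalization (0.87, limma adjusted p = 0.452) and without mCherryLow 1 (1.97, limma adjusted p = 0.0546). Between DTC and mCherryHigh the difference was -1.001 (SE 0.71, limma adjusted p = 0.309) and did not pass. Per kilobase, Mst1r made up 1.75% ± 2.65 (SD, n = 3) of the 2 Met family receptors in mCherryLow, 19.2% ± 8.89 in mCherryHigh and 8.74% ± 3.23 in DTC, so Met was the larger part in all 9 libraries.

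The Met family ligands had low levels, with 0 to 62 reads in a library. Hgf had 1, 1 and 22 reads in mCherryLow, 2, 19 and 28 in mCherryHigh and 2, 0 and 3 in DTC, and its highest value was 3.25 CPM, in DTC 3. The lowest mCherryHigh library, at 1.94 CPM, lay just above the highest mCherryLow library, at 1.85 CPM, and the difference of 1.11 did not pass (SE 0.49, limma adjusted p = 0.545). Mst1 had 7, 9 and 7 reads in mCherryLow, 0, 62 and 28 in mCherryHigh and 2, 2 and 0 in DTC. Its highest value, 6.33 CPM in mCherryHigh 5, stands beside a 0 in mCherryHigh 1 that allows up to 4.66 CPM. In DTC with mCherryLow too few libraries reached 1 CPM for Mst1 to enter the fit, and an exact two-sided permutation test gave p = 0.6, where 0.1 is the smallest p that 3 against 3 allows. In a later annotation 484 exon bases of Hgf are shared with Gm43489 on the same strand, and 195 exon bases of Mst1 lie opposite Rnf123, which had a mean of 49.2 CPM in mCherryLow, far above Mst1. Reads of Mst1 and Rnf123 cannot be told apart if counting ignored strand.

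**Figure D3:**
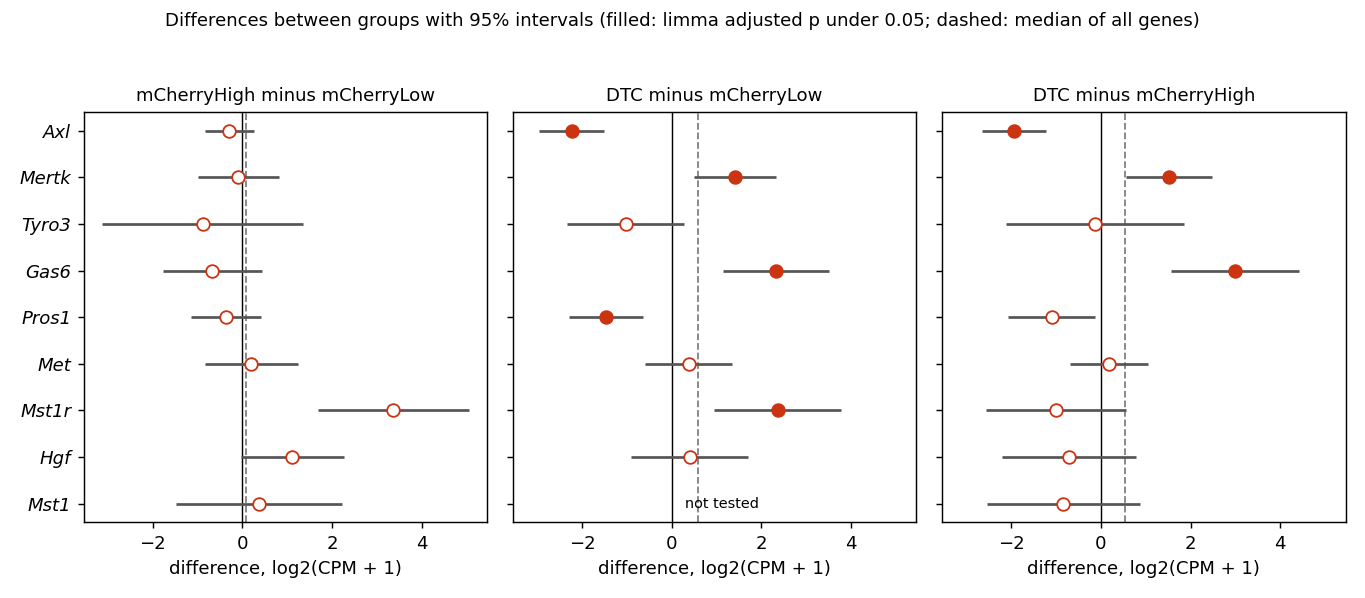
Difference between groups on the log2(CPM + 1) scale (x axis) for each gene (y axis) in 3 panels, 1 per comparison, with lines for 95% intervals, filled points for a limma adjusted p under 0.05 and a dashed line at the median of all genes. Filled points are absent from the left panel, number 5 in the middle panel and 3 in the right one, and Axl is the lowest point in both DTC panels.

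In mCherryHigh with mCherryLow, 0 of 9 members passed limma, where 0.00% of 15437 tested genes did. At an unadjusted p under 0.05 the counts were 1 member (Mst1r) and 1448 genes, edgeR called 0 genes, and DESeq2 called 148. Mst1r was among the 0.360% of genes that DESeq2 called higher in mCherryHigh. Mst1r and Hgf, 2 of 9, had groups that did not overlap, against 15.9% of all genes. The members' median difference was -0.10, beside 0.09 over all genes.

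In DTC with mCherryLow, 3 of the 8 members tested passed as higher, where 34.2% of all 18701 genes did, and 2 passed as lower, where 8.87% did. A single read was worth 1.08 CPM in DTC 3 and 0.487 in DTC 2, against 0.0843 in mCherryLow 6. Genes with very few DTC reads could therefore meet the filter of 1 CPM and enter these shares. The groups did not overlap for 5 of 8, against 53.2% of all genes. The counts of members are thus near the background for rises, and 2 of 8 against 8.87% for falls rests on Axl and Pros1 alone. The median difference was 0.39 over the members and 0.59 over all genes. In DTC with mCherryHigh, which shares the DTC libraries, 2 of 9 passed as higher against 23.0% of 19700 genes, 1 of 9 as lower against 7.19%, and 3 of 9 did not overlap against 44.7%. The medians were -0.71 and 0.55. Scaling changed this split. After quantile normalization 13.9% of genes were called higher and 9.67% lower in DTC with mCherryLow, and the members called were 0 higher and 3 lower (Axl, Tyro3, Pros1). With edgeR the shares were 24.4% and 16.6%, and the members called were 1 higher (Gas6) and 2 lower (Axl, Pros1). In DTC with mCherryHigh quantile normalization gave 8.48% and 6.10%, with 0 members higher and 1 lower (Axl), and edgeR gave 15.9% and 10.8%, with Gas6 higher and Axl and Pros1 lower. Without DTC 3 the members called were 4 of 8 against mCherryLow (Axl, Gas6, Pros1, Mst1r) and 2 of 9 against mCherryHigh (Axl, Gas6). The shares of all genes called without DTC 3 are not given here, so these counts cannot be set against a background.

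Genes that work with these receptors were taken from 6 lists of ligand activation, ligand modification, co-receptors, signalling, down-regulation and engulfment. In mCherryHigh with mCherryLow 0 of 90 passed limma, with 0 by edgeR and by DESeq2 1 higher and 1 lower. In the co-receptor and partner list 11 of 13 genes had log2(CPM + 1) differences above 0, as did 8 of 8 genes of ligand activation, 12 of 19 of down-regulation and 15 of 20 of engulfment. In the lists of ligand modification and of signalling, 2 of 6 and 8 of 24 were above 0. The median over all genes was itself above 0, at 0.09, and the share of all genes above 0 was not taken. Egfr, the EGF receptor that can pair with Met, had a mean of 29.8 CPM in mCherryLow against 181 CPM in mCherryHigh (difference 2.43, limma adjusted p = 0.444). Integrin beta 4, Itgb4, had 38.5 and 88.8 CPM (1.26, limma adjusted p = 0.451), and Erbb3, a kinase-impaired partner, had 30.9 and 76.9 CPM (1.28, limma adjusted p = 0.444). Plxnb2, a semaphorin receptor that binds Met and Ron, had 164 and 417 CPM (1.47, limma adjusted p = 0.457). Akt1, a survival kinase downstream of all of these receptors, had 690 and 414 CPM (-0.74, limma adjusted p = 0.444). Plat, a plasminogen activator, had 76.4 and 224 CPM (1.53, limma adjusted p = 0.444).

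In DTC with mCherryLow 15 of 99 list genes passed as higher and 21 as lower, where 34.2% and 8.87% of all genes did. Those shares are also the background of each list's counts below, and for DTC with mCherryHigh they are 23.0% and 7.19%. Quantile normalization gave 6 and 14, where 13.9% and 9.67% of all genes were called higher and lower. Median-of-ratios scaling gave 12 and 35 against 30.1% and 16.3%, and edgeR 8 and 37 against 24.4% and 16.6%. The balance thus depended on scaling, in the lists and in all genes, while list falls outnumbered list rises in each. The 6 genes of vitamin K-dependent gamma-carboxylation, the modification that Gas6 and protein S need to bind phosphatidylserine, included 0 that rose and 2 that fell. Ggcx, the carboxylase itself, fell from 34.5 ± 15.5 CPM (SD, n = 3) in mCherryLow to 5.73 ± 2.22 CPM (-2.35, limma adjusted p = 0.00559), and at 69.4 ± 24.5 CPM in mCherryHigh (DTC difference -3.37, limma adjusted p = 0.00229). Vkorc1, which recycles vitamin K, fell from 44.8 to 14.4 CPM (-1.61, limma adjusted p = 0.013). The list's median difference was -0.98, beside 0.59 for all genes.

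Of 14 genes for activation of Hgf and Mst1 and its inhibitors, 6 rose and 1 fell in DTC against mCherryLow. The protease genes that rose included Tmprss13, from 0.222 to 21.4 CPM (4.07, limma adjusted p = 0.000561), and Klkb1, plasma prekallikrein, from 0.194 to 6.94 CPM (2.74, limma adjusted p = 0.00144), with F2, St14 and Plg. Furin, the convertase that also processes the Met precursor, fell from 266 to 119 CPM (-1.16, limma adjusted p = 0.0168). Serpina5, which also rose, is an inhibitor rather than an activator. The list's median difference was 0.65, near that of all genes.

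Of 14 co-receptors and partners 1 rose and 3 fell against mCherryLow. Cd44, the hyaluronan receptor that presents Hgf to Met, fell from 1159 to 542 CPM (-1.13, limma adjusted p = 0.0156), Erbb2 from 105 to 33.2 CPM (-2.06, limma adjusted p = 0.021) and Nrp2 from 166 to 86.9 CPM (-0.93, limma adjusted p = 0.041). Cdcp1, a Src-binding surface protein, rose from 0.744 to 14.9 CPM (2.78, limma adjusted p = 0.0145). Cdcp1 was not among the 13 genes of this list tested between the mCherry groups, and needed DTC libraries to meet the filter. Against mCherryHigh 7 of 14 fell, where 7.19% of all genes did, among them Itgb4, from 88.8 to 14.6 CPM (-2.56, limma adjusted p = 0.00277), and Erbb3, from 76.9 to 12.2 CPM (-2.64, limma adjusted p = 0.00422).

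Of 24 adaptors and effectors 1 rose and 5 fell against mCherryLow. Akt1 fell from 690 ± 15.1 to 166 ± 70.1 CPM (SD, n = 3; -2.15, limma adjusted p = 0.00125), Pik3r2, a regulatory subunit of PI3-kinase, from 111 to 31.5 CPM (-2.00, limma adjusted p = 0.0102), and the kinase gene Mapk3 and the GTPase gene Rac1 fell with Map2k1. Tns3, a focal adhesion protein, rose. Of 19 genes for shedding and down-regulation 1 rose and 5 fell. The latter held both sheddases that release receptor ectodomains, Adam17, from 197 to 70.9 CPM (-1.48, limma adjusted p = 0.00447), and Adam10, from 175 to 66.5 CPM (-1.43, limma adjusted p = 0.00929), with Sh3kbp1, Ptpn1 and Dusp6. Spry2, a feedback inhibitor, rose from 8.69 to 40.6 CPM (1.90, limma adjusted p = 0.019).

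Of 22 genes for phosphatidylserine recognition and engulfment 6 rose and 5 fell against mCherryLow. Cd36, a scavenger receptor of macrophages and endothelium, rose from 5.78 to 154 CPM (4.39, limma adjusted p = 0.000397) and Dock2, an exchange factor of blood cells, from 11.9 to 92.1 CPM (2.80, limma adjusted p = 0.000668). Elmo2 fell from 283 to 48.1 CPM (-2.51, limma adjusted p = 0.000618) and Itgb5, a subunit of an integrin that works with Mertk, from 158 to 27.6 CPM (-2.49, limma adjusted p = 0.000871). Among the 11 macrophage markers 8 were called higher in the same comparison, and 8 of 8 endothelial markers were. The macrophage markers Csf1r (8.53 and 35.8 CPM) and Lyz2 (105 and 2454 CPM) were among them, while Cd68 (175 and 160 CPM) and Mrc1 (205 and 213 CPM) had similar means in mCherryLow and DTC. Chi3l3, a gene of alveolar macrophages, was at 0, 0 and 1.46 CPM in mCherryLow libraries and between 967 and 2416 CPM in DTC. The part of these cells in the rises of Mertk, Gas6, Cd36 and Dock2 was not tested.

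**Figure D4:**
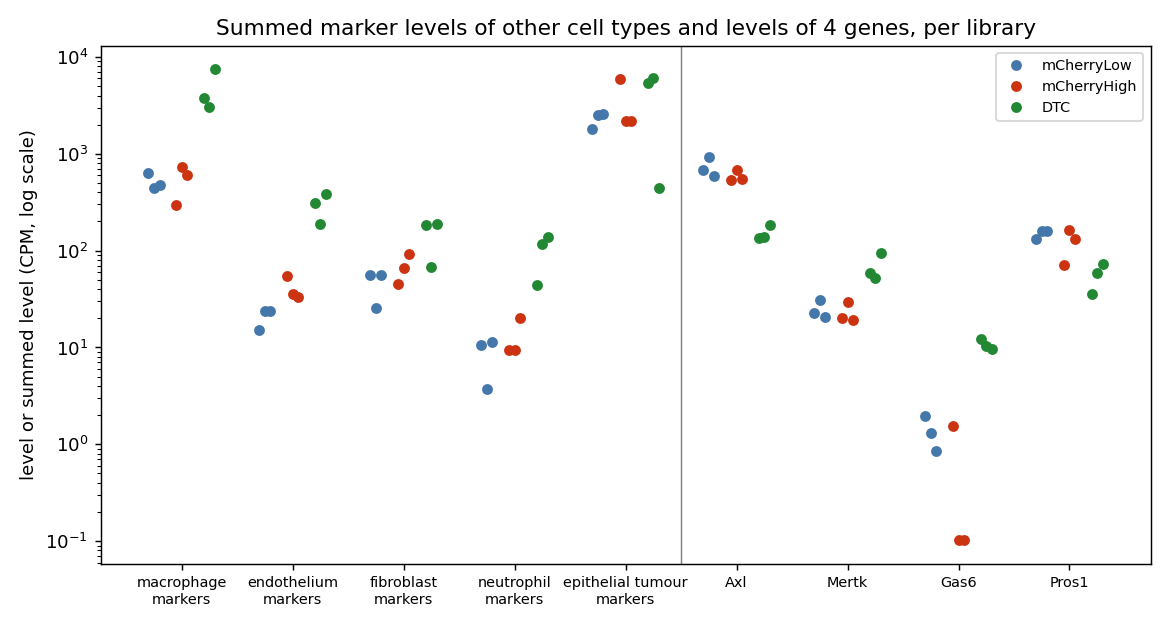
Summed CPM of marker genes of 5 cell types (left of the line) and CPM of Axl, Mertk, Gas6 and Pros1 (right of it), on a log y axis, with 1 point per library coloured by group. DTC points lie above the mCherry points for macrophage, endothelial and neutrophil markers, Mertk and Gas6, and below them for Axl, and the lowest epithelial point, 439 CPM, is DTC 3.

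For members whose mean reached 10 CPM in a group, the genes with the most similar pattern were ranked by Pearson correlation of log2(CPM + 1) over the 9 libraries. This is a description over libraries that share group and depth. Slc16a3, a lactate transporter, was among the genes closest to Axl (r = 0.981), with means of 72.8, 74.0 and 16.6 CPM in mCherryLow, mCherryHigh and DTC. The closest to Mertk were Cgn (r = 0.991), Rtbdn (0.987) and Fam69c (0.984). Cgn, which encodes the tight junction protein cingulin, had means of 8.95, 8.41 and 30.2 CPM. Gas6 was closest to Gpr77 (r = 0.983), Sec14l3 (0.982) and Zbtb16 (0.980), and Pros1 to Uvrag (0.987), Tmem9b (0.979) and M6pr (0.976). Likeness was weaker for Met, with Abcb1b (r = 0.963), Gja1 (0.948) and Gpr39 (0.945), for Tyro3, with Bcl2l13 (0.94994), Bmp1 (0.945) and Col4a2 (0.943), and for Mst1r, with Trim39 (0.932), Cyp3a13 (0.930) and Lhpp (0.921).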

How the data were processed

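RNA was sequenced from 9 libraries of sorted cells. Per the labels' protocols, RNA was isolated with RNAqueous-Micro, cDNA made with SMART-seq v4 and libraries with Nextera XT. Reads were mapped to mm9, per the submitters' processing notes, while the aligner was not given in the sources used here, nor was the counter. CPM values of 24012 genes were deposited by the authors. All values (100%) were whole multiples of the CPM worth 1 read within 0.01 read, so reads and library totals were recovered.

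For each comparison of 6 libraries, genes reaching 1 CPM in 3 or more of them entered a limma 3.58.1 fit (R 4.3.3) of log2(CPM + 1) on group alone, with a trended variance and two-sided tests. A gene high in 1 group only could enter through that group alone. P-values were adjusted by Benjamini-Hochberg over all genes, with a threshold of 0.05. The 3 comparisons share libraries. A fold change on this scale understates the change of low genes. Length scaling used GENCODE M21 transcripts, a later build than mm9. Promoters were matched by symbol for all 9 members.

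The members and gene lists were chosen with earlier results of these data known. Named genes are all members, up to 4 genes per list with the smallest p in a comparison, 3 genes most like each member, and marker genes. Further list genes that passed were named after their values were seen. The analysis was repeated with pseudocounts of 0.25 and 5, no filter or one of 5 CPM, quantile or median-of-ratios scaling, 1 fit of all libraries, array weights, edgeR 4.0.16 and DESeq2 1.42.0 on recovered reads, thinning to 643748 reads, the label number as a block, the code series as a term and leaving out each library. The procedure was tested on simulated data. A few items are not reported here.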

Additional observations from a re-analysis of the deposited data

How the results depend on the processing

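Of the members' differences under all alternatives, 405 kept their direction and side of the threshold, 18 lost the call, 7 gained it and 22 turned direction. No difference that passed limma turned direction under an alternative run. For mCherryHigh with mCherryLow, Met turned to -0.11 with edgeR and -0.0785 with DESeq2, Gas6 to 0.45 at equal depth and Mertk to 0.0575 with the code series as a term. DESeq2 called 1 member there. Leaving out 1 library gave Mertk -0.28 to 0.0662, Tyro3 -1.56 to 0.24, Met -0.0544 to 0.65 and Mst1 -0.26 to 1.18. For DTC with mCherryLow, quantile normalization and edgeR each called 3 members, and leaving out 1 library 3 (without mCherryLow 1) to 5. The shares of all genes under quantile normalization and edgeR are given above, and those with 1 library left out are not. Hgf turned to -0.95 after quantile normalization and ran from -0.0712 to 0.97 with 1 library left out, and Met turned to -0.26 with edgeR and -0.11 with DESeq2. For DTC with mCherryHigh, quantile normalization called 1 member, and Met turned to -0.0033 with median-of-ratios scaling and -0.18 with edgeR. Leaving out 1 library gave Met -0.0445 to 0.44 and Tyro3 -1.27 to 0.54. The cause of these changes was not tested, and the fits with 1 library left out also held fewer libraries. List genes called higher in DTC with mCherryLow numbered 15, and 9 with a filter of 5 CPM, 6 after quantile normalization, 8 with edgeR and 8 to 13 with 1 library left out. Those called lower numbered 21, and 35 with median-of-ratios scaling, 37 with edgeR, 34 with DESeq2 and 12 to 25 with 1 library left out. Of all genes, 34.2% were called higher in the main fit, 13.9% after quantile normalization and 24.4% with edgeR. The shares called lower were 8.87% in the main fit, and 16.3%, 16.6% and 15.8% with median-of-ratios scaling, edgeR and DESeq2. For DTC with mCherryHigh 9 higher became 3 after quantile normalization and 5 to 8 with 1 library left out. The 22 lower became 12 after quantile normalization, 33 by median-of-ratios scaling, 36 with array weights and 9 to 24 with 1 library left out. Of all genes there, 23.0% were called higher in the main fit and 8.48% after quantile normalization. The shares called lower were 7.19% in the main fit, 6.10% after quantile normalization and 9.70% with median-of-ratios scaling. DESeq2 called 1 list gene higher and 1 lower in mCherryHigh with mCherryLow. With the label number as a replicate block, 0 members were called and Mst1r stood at 3.36 (limma adjusted p = 0.566). Same-numbered libraries had correlations of deviations of -0.20, -0.02 and 0.27, so the numbers were not treated as pairs, although the libraries numbered 1 share a code series, as do those numbered 5. In the DTC comparisons no block could be fitted, since the groups share fewer than 2 numbers. Depth limits Gas6, Hgf, Mst1 and Mst1r, which had 0 to 33 reads in each DTC library.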
